A study of Rattus norvegicus with 18 samples.

Results

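Aminoacyl-tRNA synthetases were followed in medullary thyroid carcinomas of rats with a mutated Cdkn1b gene, which encodes the cell cycle inhibitor p27Kip1. The genes were those whose symbol has the form of a synthetase name (an amino acid letter, ars, and an optional 1 or 2), together with Eprs1, Farsa, Farsb and Pars2, and each was read from a probe set that names a single gene. Of 14506 genes measured in this way, 29 were synthetases, 19 of the cytosolic set and 10 of the mitochondrial set, whose symbols end in 2. The name rule itself used no expression value beyond picking the brightest probe set of a gene, but it was set with earlier results of these data known. All 29 lay above the filter on low values.

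The study compared tumours by genotype and by age. RNA of 18 tumours, each from its own animal, was hybridised to Affymetrix arrays, and the samples formed 3 groups of 6. Rats of the first group were homozygous for the Cdkn1b mutation and 9 months old, those of the second were heterozygous and 9 months old, and those of the third were heterozygous and 18 months old. All were of the Sprague–Dawley white eye/Wistar–Kyoto strain, were kept free of specific pathogens and received no treatment, so every group carried at least 1 mutant allele, and normal thyroid was not analysed here. The medullary carcinoma arises from C cells, the calcitonin-producing cells of the thyroid, and the calcitonin gene Calca was bright in every group, at 13.91 in homozygous, 13.82 in heterozygous 9-month and 14.06 in heterozygous 18-month tumours (mean log2 values, n = 6 each). Thyroglobulin (Tg), the product of follicular cells, was bright too, at 14.29, 14.34 and 13.60, so the samples held more than C cells. Cdkn1b itself was at 11.08 ± 0.10 in homozygous tumours, 10.78 ± 0.10 in the younger and 10.92 ± 0.15 in the older heterozygous tumours (SD, n = 6). The homozygous values, 10.96 to 11.25, all lay above the heterozygous 9-month values, 10.67 to 10.90. Groups without overlap in either direction were seen in 1.57% of all genes tested by genotype. The array level of Cdkn1b did not pass the test in either comparison (limma adjusted p = 0.266 by genotype and 0.126 by age). The labels do not say which bases are mutated, so this level does not check the genotype.

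Each synthetase joins an amino acid to its matching tRNA, the step that lets the ribosome read the genetic code. For most amino acids the cytosol and the mitochondrion use enzymes from separate nuclear genes, while Gars1 and Kars1 each encode both forms. Several cytosolic enzymes are held by scaffold proteins in the multisynthetase complex, and many cytosolic synthetase genes are known targets of ATF4, a transcription factor made when amino acids are scarce, which binds the C/EBP-ATF response element.

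The promoter sequences of these genes were compared first, because that element gives the cytosolic genes a feature that the choice by name did not use. RefSeq promoter windows (GRCr8, from 250 bases before to 50 bases after the transcription start) were held for 17 of the 19 cytosolic genes and for 10 of the 10 mitochondrial genes. Windows for Gars1 and Rars1 were not used here. The core motif TGATGNAA, searched on both strands, was present in 7 of the 17 cytosolic windows and in 0 of the 10 mitochondrial windows. Over all genes with a window, 4.16% of 27457 held it, and 2.32% of the 9389 such genes that were tested on the arrays. The core of the interferon-stimulated response element was found in 0 of these 27 windows and in 4.12% of all genes. For 6 of the 7 genes the stretch around the match is given 5′ to 3′ on the gene's own strand, with the match in capitals:
Cars1: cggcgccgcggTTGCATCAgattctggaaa
Iars1: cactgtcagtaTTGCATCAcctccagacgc
Mars1: gcccgttccggTTGCATCAgcgtgggctcc
Nars1: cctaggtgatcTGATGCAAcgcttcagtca
Tars1: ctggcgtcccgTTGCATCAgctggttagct
Yars1: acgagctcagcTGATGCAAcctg

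In each of these 6 genes the match read TGATGCAA or, on the other strand, TTGCATCA. It began 14 bases before the start in Nars1, 17 in Mars1, 24 in Iars1 and 27 in Tars1. In Cars1 and Yars1 it lay after the start, from transcribed bases 18 and 39. These positions and letters describe the 6 genes shown and not the seventh, Aars1. The windows lie on chr1:208225320-208225619 (Cars1, minus strand), chr17:15193603-15193902 (Iars1, minus), chr7:65023704-65024003 (Mars1, minus), chr18:60275733-60276032 (Nars1, minus), chr2:62114753-62115052 (Tars1, minus) and chr5:146819913-146820212 (Yars1, plus). A match shows these letters in the window and does not show that a factor binds there.

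Hars1 and Hars2, the cytosolic and mitochondrial histidyl-tRNA synthetase genes, lie head to head on chromosome 18, Hars1 on the minus and Hars2 on the plus strand, and the transcription starts used for their promoter windows, which overlap, are 144 bases apart. The stretch between the annotated ends of both genes, chr18:28672713-28672809 on the plus strand, is shown in full because the genes on its sides differed in direction with age:
Between Hars1 and Hars2: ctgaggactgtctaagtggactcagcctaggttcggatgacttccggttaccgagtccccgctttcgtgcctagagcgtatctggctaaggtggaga

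In heterozygous rats, cytosolic synthetase genes were mostly higher in tumours of 18 months than of 9 months, whereas mitochondrial ones were mostly close to their younger level. The mitochondrial genes were also dimmer, with a mean of 8.33 against 9.81 in the younger tumours. Whether brightness bears on this contrast was not tested. Of the 19 cytosolic genes 13 rose and 2 fell at a limma adjusted p under 0.05, and 4 did not pass. Of the 10 mitochondrial genes 0 rose, 1 fell and 9 did not pass. The background is broad, since 44.1% of the 11370 genes tested passed in this comparison, 21.6% higher and 22.4% lower. The median difference was 0.30 on the log2 scale over the cytosolic genes, with a range from -0.29 to 0.48, and -0.02 over the mitochondrial genes, with a range from -0.24 to 0.18, beside -0.0045 over all genes tested. None of the 29 differed by 1 or more on this scale, while 8.05% of all genes had such a difference together with a limma adjusted p under 0.05. The largest of these rises, that of Cars1, amounted to 1.40-fold.

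**Figure D1:**
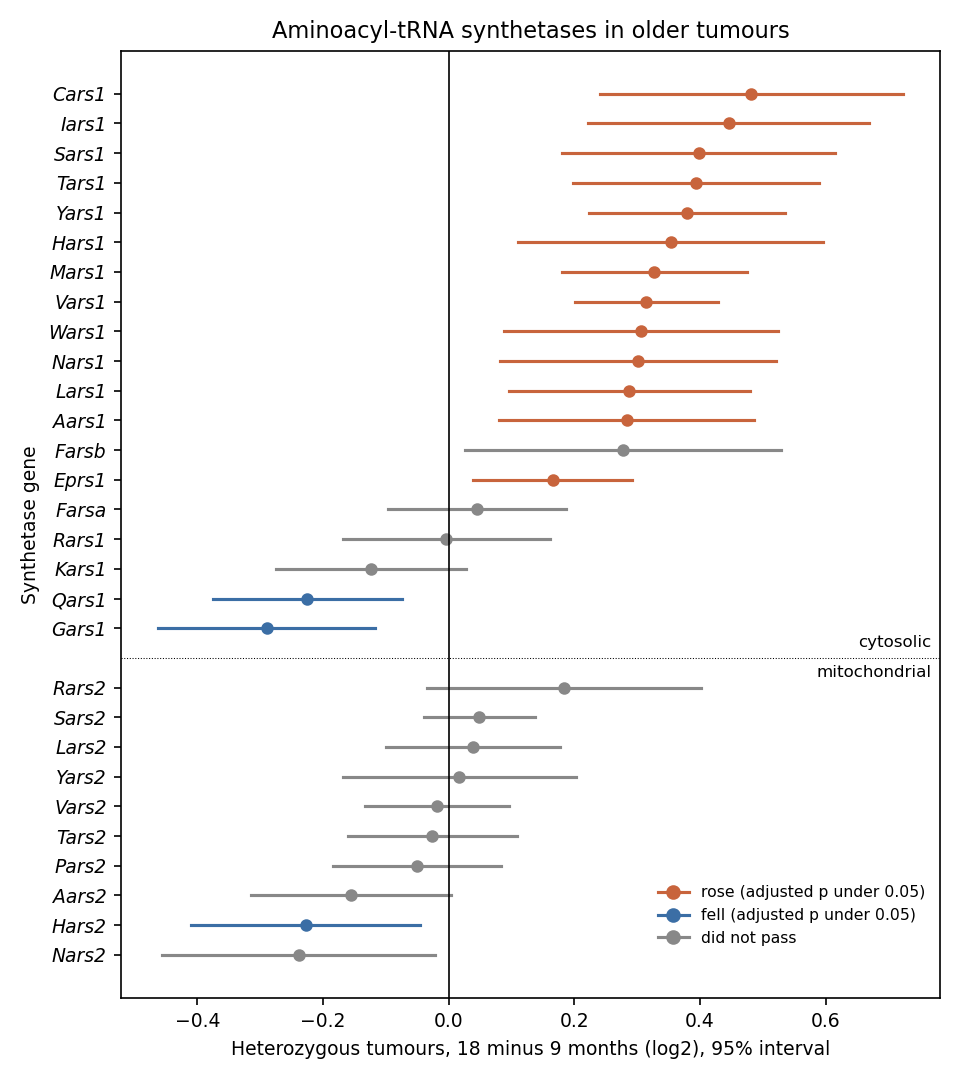
Difference between heterozygous tumours of 18 and 9 months (log2, x axis) for each of the 29 synthetase genes (y axis), with the 95% interval of the limma fit. Orange marks the 13 genes that rose, blue the 3 that fell (Gars1, Qars1, Hars2) and grey the 13 that did not pass; the orange points all belong to the cytosolic set.

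In 4 genes every older tumour lay above every younger heterozygous tumour, an arrangement that 9.07% of all genes showed in this direction. Vars1, the valyl-tRNA synthetase, ran from 9.06 through a median of 9.11 to 9.22 in the younger tumours and from 9.29 through 9.42 to 9.60 in the older. The groups of Vars1 did not overlap, and the difference was 0.31 (SE 0.05, limma adjusted p = 0.000591). Yars1, the tyrosyl-tRNA synthetase, ran from 8.80 through 8.99 to 9.09 at 9 months and from 9.12 through 9.36 to 9.57 at 18 months. The lowest older tumour, replicate 4, was close to the highest younger tumour, and the difference was 0.38 (SE 0.07, limma adjusted p = 0.00109).

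Mars1 encodes the methionyl-tRNA synthetase, which charges initiator as well as elongator tRNA. It lay within a narrow band at 9 months, from 9.45 through 9.48 to 9.54, and spread from 9.58 through 9.80 to 10.03 at 18 months. Replicates 1, 2 and 3 were at 10.03, 9.98 and 9.91 and replicates 4, 5 and 6 at 9.58, 9.70 and 9.68, so the older tumours differed more among themselves (SD 0.18) than the younger (SD 0.03). The median SD over all genes tested was also larger in the older tumours, 0.191 against 0.107 in the younger heterozygous tumours. For Mars1 the difference of the means was 0.33 (SE 0.07, limma adjusted p = 0.00178). Tars1, the threonyl-tRNA synthetase, ran from 8.43 through 8.48 to 8.63 and from 8.71 through 8.81 to 9.20, a difference of 0.39 (SE 0.09, limma adjusted p = 0.00313). Its groups did not overlap either, but only replicates 1 and 2 stood above all 12 tumours of 9 months, since homozygous replicate 3 was at 8.84.

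Cars1, the cysteinyl-tRNA synthetase, was at 8.63, 8.73 and 8.92 (lowest, median, highest) in the younger and at 8.89, 9.21 and 9.67 in the older tumours. Replicates 1, 2 and 3 were at 9.42, 9.45 and 9.67, while replicate 4, at 8.89, fell within the younger range. The difference was 0.48 (SE 0.11, limma adjusted p = 0.00322). Iars1, the isoleucyl-tRNA synthetase of the multisynthetase complex, went from 10.10, 10.24 and 10.43 to 10.28, 10.74 and 10.99. Again 5 of 6 older tumours exceeded every younger tumour and replicate 4 did not, with a difference of 0.45 (SE 0.11, limma adjusted p = 0.00333).

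The other cytosolic genes that rose were Sars1 (seryl, difference 0.40), Hars1 (histidyl, 0.35), Wars1 (tryptophanyl, 0.31), Nars1 (asparaginyl, 0.30), Lars1 (leucyl, 0.29), Aars1 (alanyl, 0.28) and Eprs1 (glutamyl and prolyl in a single protein, 0.17), with limma adjusted p between 0.00557 and 0.0342 and groups that overlapped. In Lars1 replicate 4, at 9.97, was even below the lowest younger tumour. Hars1 rested most on a single tumour: replicate 1 was at 10.40 and the next at 9.81, and without replicate 1 the difference was 0.23. Wars1, a gene known to be induced by interferon gamma, overlapped most, with 2 of 6 older tumours above the highest younger tumour. Without 18-month replicate 1 the calls of Aars1, Eprs1, Nars1 and Wars1 were lost. That left 9 genes that rose and the same 2 that fell, beside 38.1% of all genes called in that fit and 44.1% with all tumours. Hars1 had a second, dim probe set, at 6.30 in younger and 6.44 in older tumours on average, close to the filter value of 6.32.

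**Figure D2:**
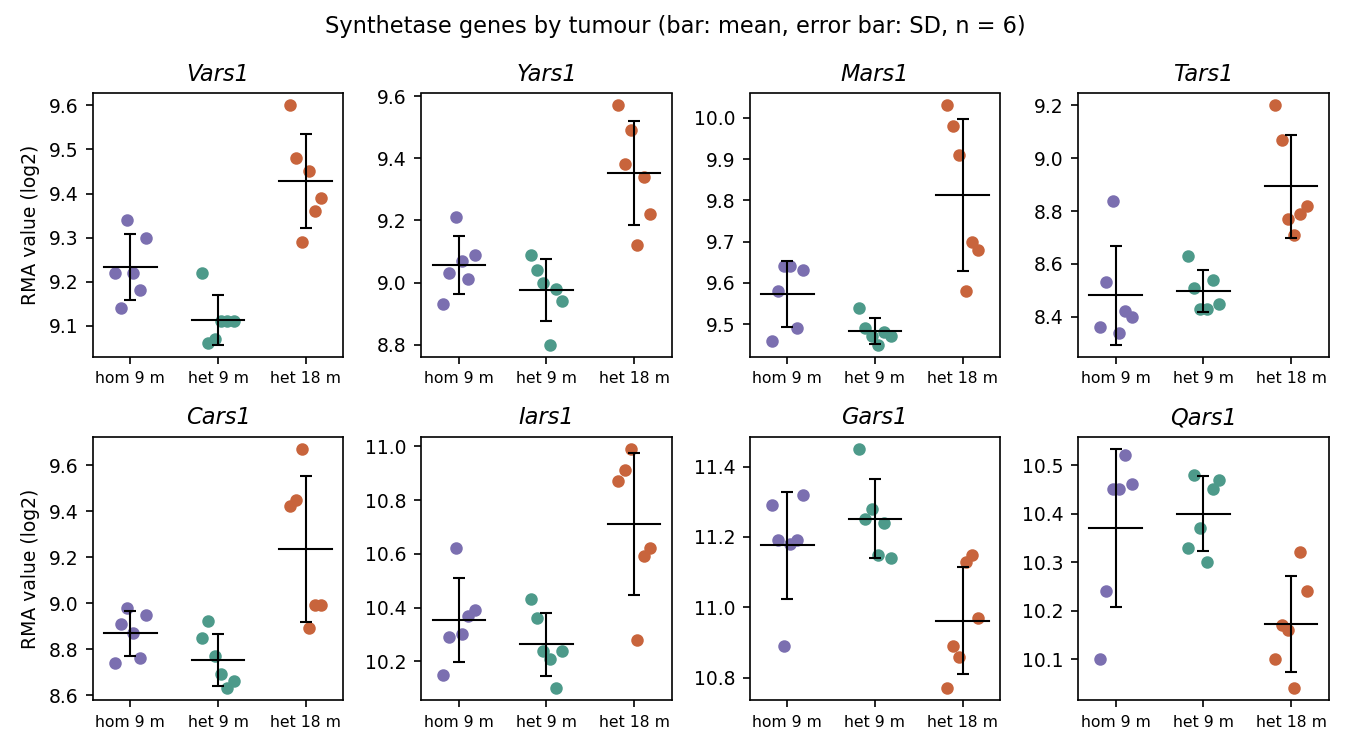
RMA values (log2, y axis) of 8 cytosolic synthetase genes in each tumour, by group (x axis: hom, homozygous; het, heterozygous; m, months), with mean and SD (n = 6). In Vars1, Yars1, Mars1 and Tars1 the 18-month points lie above all heterozygous 9-month points, and in Gars1 and Qars1 5 of 6 lie below them.

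Gars1 and Qars1 went the other way. Gars1, which supplies glycyl-tRNA synthetase to cytosol and mitochondrion, ran from 11.14 through 11.24 to 11.45 at 9 months and from 10.77 through 10.93 to 11.15 at 18 months. It fell by 0.29 (SE 0.08, limma adjusted p = 0.00922), and 5 of 6 older tumours lay below every younger heterozygous tumour. Qars1, the glutaminyl-tRNA synthetase, ran from 10.30 through 10.41 to 10.48 and from 10.04 through 10.17 to 10.32, and fell by 0.23 (SE 0.07, limma adjusted p = 0.0171). Here too 5 of 6 older tumours were below the younger range, and replicate 5 was the exception in both genes.

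The 4 cytosolic genes that did not pass had differences of 0.28 for Farsb, 0.05 for Farsa, -0.0035 for Rars1 and -0.12 for Kars1. Farsa and Farsb encode the catalytic and the other subunit of phenylalanyl-tRNA synthetase. The 95% interval ran from 0.03 to 0.53 for Farsb (limma adjusted p = 0.0692) and from -0.10 to 0.19 for Farsa (0.612), and the intervals overlapped. The interval of Rars1, the arginyl enzyme, was -0.17 to 0.16, and that of Kars1, the lysyl enzyme, was -0.28 to 0.03.

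Genes that rose were found inside and outside the multisynthetase complex and in both catalytic classes. Beside them 44.1% of all genes tested passed, 21.6% higher and 22.4% lower, and the counts below were not tested against these shares. Of 7 measured synthetases of the multisynthetase complex 4 rose (Eprs1, Iars1, Lars1 and Mars1), Qars1 fell, and Kars1 and Rars1 did not pass, with a median of 0.17. Of the 12 outside it 9 rose, Gars1 fell and 2 did not pass, with a median of 0.31. With Eprs1, which holds both folds, left aside, 7 of 9 class I and 5 of 9 class II genes rose. The 3 scaffold genes of the complex, Aimp1, Aimp2 and Eef1e1, did not pass, and Aimp2 had the smallest p (difference -0.26, limma adjusted p = 0.108).

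All 7 genes with the motif in their promoter window (those 6 and Aars1) rose, with differences from 0.28 to 0.48 and a median of 0.38. Of the 10 cytosolic genes whose window lacked it, 6 rose, Qars1 fell and 3 did not pass, with a median of 0.28. Among the 218 tested genes of the whole array with the motif in their window, 28.0% rose and 18.8% fell, and their median difference was 0.03. Over all genes tested 21.6% rose and 22.4% fell, with a median of -0.0045. The difference between genes with and without the motif was not tested.

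Among the mitochondrial genes Hars2 alone passed. It ran from 8.60 through 8.74 to 9.02 in the younger and from 8.46 through 8.56 to 8.70 in the older tumours, and fell by 0.23 (SE 0.09, limma adjusted p = 0.0418), with 4 of 6 older tumours below the younger range. The call was lost when homozygous replicate 4, heterozygous 9-month replicate 1, 3, 5 or 6, or 18-month replicate 1, 2 or 4 was left out, and its adjusted p lay between 0.0252 and 0.101 over all alternatives. Of those that did not pass, the largest differences were those of Nars2, the asparaginyl enzyme (-0.24, larger in size than that of Hars2, 95% interval -0.46 to -0.02, adjusted p = 0.0689), Rars2, the arginyl enzyme (0.18, interval -0.03 to 0.40), and Aars2, the alanyl enzyme (-0.15, interval -0.31 to 0.00434). The remaining 6 (Lars2, Pars2, Sars2, Tars2, Vars2 and Yars2) differed by -0.05 to 0.05.

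For 9 amino acids both the cytosolic and the mitochondrial gene were measured, so the difference between them could be formed in each tumour and compared between ages by an exact two-sided permutation test over all 924 assignments of 12 tumours. This comparison was chosen after the values were seen, so its p-values restate the differences given above and are not separate evidence. No share over other gene pairs was formed, and 44.1% of all genes tested passed by age in limma. The cytosolic gene gained on its mitochondrial partner in 8 of 9 pairs. The gain was 0.58 for Hars1 over Hars2, 0.33 for Vars1 over Vars2 and 0.36 for Yars1 over Yars2, each with exact p = 0.00216, the smallest that this design allows, and 0.00648 adjusted over the 9 pairs. In these 3 pairs the older tumours all exceeded the younger. The gain was 0.42 for Tars1 (exact p = 0.00433), 0.35 for Sars1 (0.0152), 0.54 for Nars1 (0.0238), 0.44 for Aars1 (0.026) and 0.25 for Lars1 (0.0476), with adjusted p from 0.00974 to 0.0476. The arginyl pair ran opposite, by -0.19 (exact p = 0.0325, adjusted 0.0366), with differences by age of 0.18 in Rars2 and -0.0035 in Rars1.

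**Figure D3:**
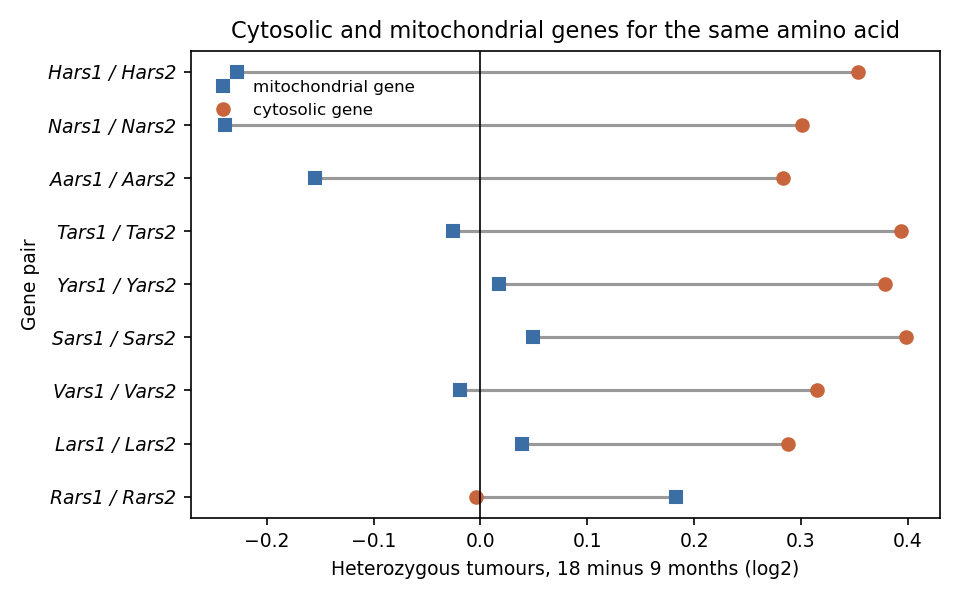
Difference between heterozygous tumours of 18 and 9 months (log2, x axis) of the cytosolic gene (orange circles) and the mitochondrial gene (blue squares) for 9 amino acids (y axis). The circle lies to the right of the square in every pair but Rars1 and Rars2, and the pairs are ordered by the gap, from -0.19 to 0.58.

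The older tumours were unlike each other, and not only in the synthetases. Their median SD was 0.191 over all genes tested and 0.183 over the cytosolic synthetases. In the younger heterozygous tumours these were 0.107 and 0.104. Averaged over the 13 genes that rose, 18-month replicate 1 stood 0.60 above the mean of the younger heterozygous tumours, replicate 2 by 0.44 and replicate 3 by 0.42. Replicates 6, 5 and 4 stood only 0.26, 0.22 and 0.10 above it. Replicate 1 was above every younger heterozygous tumour in 13 of the 13 genes and replicate 4 in 5 of them. Without replicates 4 and 5, 14 cytosolic genes rose and 2 fell, beside 53.9% of all genes called in that fit. With all 6 older tumours 44.1% of all genes were called. The median difference over the cytosolic genes was 0.41 without these 2 tumours. These deviations describe the genes that were picked for rising and carry no test.

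**Figure D4:**
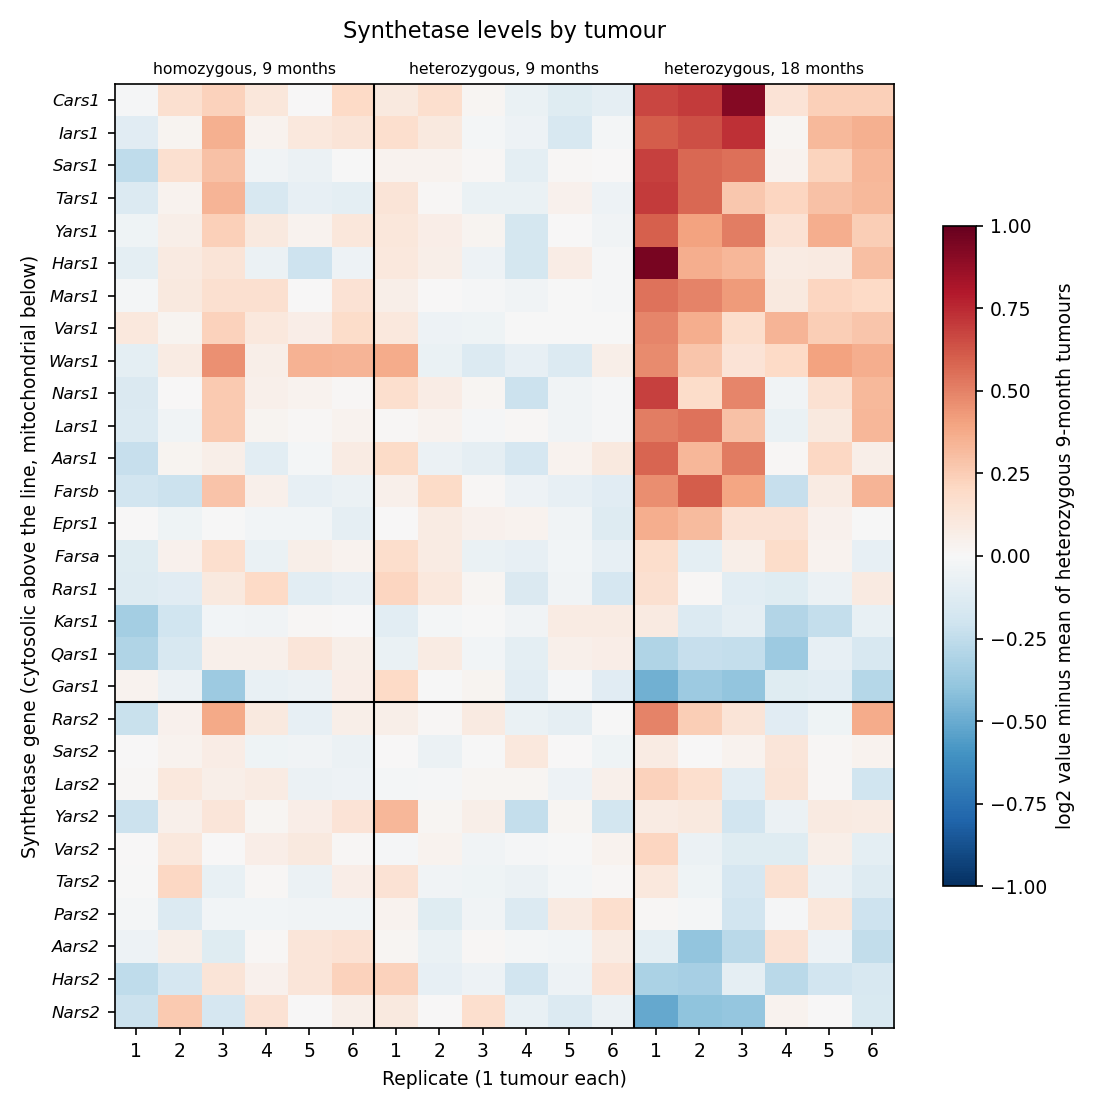
Value of each synthetase gene (rows, cytosolic above the line) in each of 18 tumours (columns, by group and replicate) minus its mean in heterozygous 9-month tumours (log2 colour scale). The red block of cytosolic genes at 18 months is strongest in replicates 1 to 3 and faint in replicate 4.

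Markers of C cells and of other cell types moved in the same tumours, beside 21.6% of all genes tested that rose and 22.4% that fell. The mean of 10 C cell markers was 11.10 ± 0.25 in younger and 12.29 ± 0.47 in older heterozygous tumours (SD, n = 6), and 8 of 10 rose. The mean over the follicular cell list went from 11.09 to 9.42 (n = 6 each), and 9 of 10 tested markers fell, though Tg did not pass. The follicular list mean was 7.28, 9.29, 8.97 and 9.43 in replicates 1, 2, 3 and 6, and 10.92 and 10.63 in replicates 4 and 5. The 13 synthetases that rose stood 0.10 and 0.22 above their younger mean in replicates 4 and 5. In replicate 6 they stood 0.26 above it, close to replicate 5 though its follicular mean was lower. Endothelial markers fell in 7 of 7 and adipocyte markers in 5 of 5, while none of 4 tested T cell markers passed. Parathyroid markers rose in 1 and fell in 1 of 3, and skeletal muscle markers fell in 1 of 8. Fibroblast markers rose in 1 and fell in 3 of 7, macrophage markers fell in 2 of 6 and mast cell markers in 2 of 3. The parathyroid list mean ranged from 9.87 to 12.81 in younger and from 8.53 to 12.87 in older heterozygous tumours. For skeletal muscle these ranges were 9.39 to 11.47 and 6.78 to 10.65. In these bulk samples fewer cells of a type and less RNA per cell cannot be told apart, and the part of cell makeup in the synthetase differences was not tested.

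**Figure D5:**
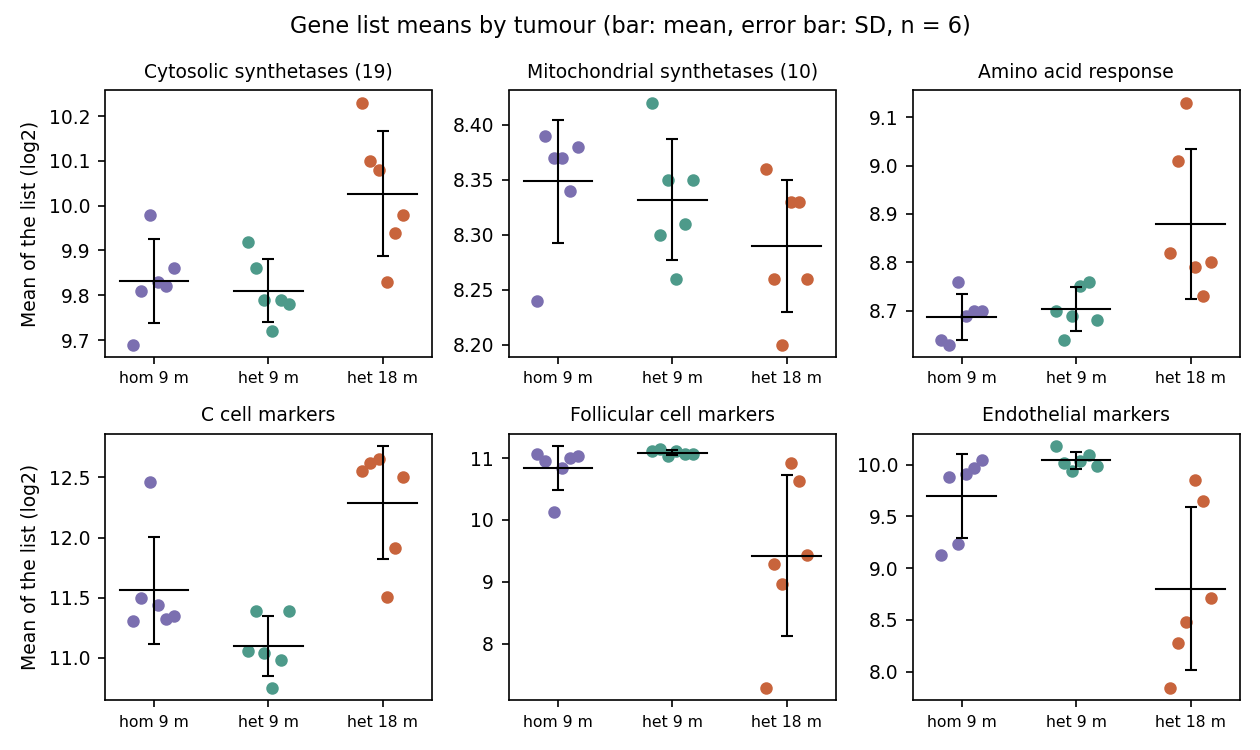
Mean log2 value of 6 gene lists in each tumour (y axis), by group (x axis: hom, homozygous; het, heterozygous; m, months), with group mean and SD (n = 6). The cytosolic synthetase mean was 9.81 in younger and 10.03 in older heterozygous tumours and the mitochondrial mean 8.33 and 8.29, beside higher C cell and lower follicular and endothelial marker means in most older tumours.

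Genes that work beside the synthetases moved in both directions with age. Over all genes tested 21.6% rose and 22.4% fell, and the counts of the lists were not tested against these shares. Of 25 tested genes of the ATF4-dependent amino acid response 8 rose and 4 fell. The smallest p-values among the risers belonged to amino acid carriers, Slc7a5 (difference 1.98, SE 0.39, limma adjusted p = 0.00114), Slc7a1 (1.14, SE 0.23, 0.00122) and the cystine carrier Slc7a11 (1.85, SE 0.39, 0.00167). The 4 that fell were Psat1 and Phgdh of serine synthesis (-1.86 and -1.19), Shmt2 of one-carbon metabolism (-0.58) and Cth of cysteine synthesis (-0.67). Atf4 RNA itself was at 10.13 and 10.16 in the younger and the older tumours (limma adjusted p = 0.80). The arrays do not show ATF4 protein, and the part of ATF4 in these differences was not tested. Of the 24 genes of this list with a promoter window, 5 held TGATGNAA. Slc7a1, Nupr1 and Pck2 among them rose, while Trib3 and Chac1 did not pass.

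Of 10 related genes outside the name rule 2 rose and 1 fell, beside 21.6% of all genes tested that rose and 22.4% that fell. Tars3, which encodes a further threonyl-tRNA synthetase, rose by 0.80 (SE 0.15, limma adjusted p = 0.000865), and Dtd1, which clears D-amino acids from tRNA, by 0.73 (SE 0.12, 0.000575), both differences larger than that of any synthetase within the name rule. Pstk, a kinase of selenocysteinyl-tRNA synthesis, fell by 0.21 (SE 0.06, 0.0082). Fars2, the mitochondrial phenylalanyl enzyme, differed by 0.02 and did not pass. Of 17 cytosolic translation factors 5 rose and 3 fell, led by Eef1a2 (1.31), which brings charged tRNA to the ribosome, by Eif4ebp1 (-0.48), which restrains cap-dependent initiation, and by Eif2b3 (0.49). Of 7 mitochondrial translation factors only the elongation factor Tufm passed (-0.35, limma adjusted p = 0.000836). Of 17 genes of tRNA maturation only the tRNA ligase Rtcb did (0.39, 0.00587). Of 10 tested interferon gamma response genes Tap1 alone passed, with -0.35 (0.0286), beside the rise of Wars1.

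At 9 months homozygous and heterozygous tumours could not be separated by any synthetase. Of the 29 genes 0 passed in limma, as did 0% of all genes, and at an unadjusted p under 0.05 Vars1 alone passed, beside 8.75% of all genes. The median difference, homozygous minus heterozygous, was 0.01 over the cytosolic genes, of which 10 were positive, and 0.02 over the mitochondrial genes, of which 8 were. The 3 smallest p-values belonged to Vars1 (0.12, SE 0.05, limma adjusted p = 0.556), Wars1 (0.20, SE 0.10, 0.588) and Kars1 (-0.10, SE 0.07, 0.686). The 95% intervals of the 29 differences lay within -0.29 and 0.42, and the upper bound of Wars1, 0.42, exceeds its difference with age, so these data do not show that the genotypes are alike. Vars1 ran from 9.14 through 9.22 to 9.34 in homozygous tumours, and 3 of 6 exceeded every heterozygous tumour of that age. None of the 29 genes had groups without overlap, which 1.57% of all genes had. Homozygous replicate 3 stood apart: averaged over the 13 genes that rose with age it was 0.23 above the heterozygous 9-month mean, against -0.09 to 0.08 in the other 5, and its C cell marker mean was 12.46, against 11.31 to 11.50. The 9 pairs of cytosolic and mitochondrial genes gave exact permutation p-values from 0.234 to 0.952 in this comparison (0.947 to 0.952 adjusted over the 9 pairs).

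Homozygous tumours of 9 months and heterozygous tumours of 18 months differ in genotype and age together. Of the cytosolic genes 11 were lower in the homozygous tumours, Qars1 was higher and 7 did not pass, with a median of -0.26, beside 29.8% of all genes called, 13.6% lower and 16.2% higher. Of the mitochondrial genes only Hars2 passed, higher in homozygous tumours, and the median was 0.03. When only these groups entered the fit, 1 cytosolic gene was called and Hars2 was not, beside 6.23% of all genes in that fit. This comparison shares its older tumours with the comparison by age and its homozygous tumours with that by genotype, so its calls are not separate evidence.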

How the data were processed

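RNA of 18 tumours was purified with a column kit and DNase, amplified and biotin-labelled, per the labels' protocols. The authors deposited log2 values. RMA is listed beside version 1.3.0.187 of Affymetrix Expression Console in the submitters' processing notes, with no role or order given. RMA summarises the probes of a set after normalizing arrays to a like distribution (array medians were 7.55 to 7.65), so differences are relative to the other genes. Of 29214 probe sets, 15310 had 1 symbol in the platform annotation, 323 several and 13581 none. The brightest probe set stood for each of 14506 genes, and the test covered the 11370 genes not below 6.32, the 30th percentile over the probe sets.

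With limma 3.58.1 (R 4.3.3, statmod 1.5.0) the 3 group means were estimated from the 18 arrays together and contrasted, two-sided, with Benjamini-Hochberg adjustment over all genes tested and a threshold of 0.05. The code was tested on simulated data. Every member could be named, and SE and adjusted p were given for those past the threshold or, where there were none, for the 3 smallest p-values; of each pathway list up to 3 genes past the threshold with the smallest p-values were named, or the smallest p where none passed, and further genes (Atf4, Fars2, the Atf4 targets that fell, Calca, Tg and Cdkn1b) were named after their values were seen. The members and lists were chosen with earlier results of these data known. Alternatives were other filters, the compared groups alone, array weights, other eBayes settings, centring, repeated quantile normalization, means over probe sets, a replicate block, and tumours left out. Precision is limited by the number of arrays. Each tumour has its own animal code in the labels. Some items are not reported here.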

Additional observations from a re-analysis of the deposited data

Results flagged for a closer look

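In 93 groups of 6 tumours (29 genes and both list means, in 3 groups each), 8 had a single tumour whose gap to the next, as a share of the group's range, exceeded Dixon's critical value for 6 samples. Chance gives such a gap in about 1 in 20 groups. Among them Hars1 in 18-month replicate 1 was at 10.40 against 9.81 for the next tumour, and the rise of Hars1 shrank without it. Gars1 in homozygous replicate 3 was at 10.89 against 11.18, lower like most 18-month tumours. Vars1 in heterozygous 9-month replicate 1 was at 9.22 against 9.11, which narrowed the gap to the older tumours, and Tars2 in that tumour was at 8.82 against 8.69. Sars1 in heterozygous 9-month replicate 4 was at 9.77 against 9.87. Pars2 in homozygous replicate 2 was at 7.02 against 7.12. Homozygous replicate 1 was low in Yars2, at 7.47 against 7.70, and in the mean of the mitochondrial synthetases, at 8.24 against 8.34.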

How the results depend on the processing

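The count of cytosolic synthetases called by age (15) was 13 to 16 under the other settings and 11 to 16 with single tumours left out, lowest without 18-month replicate 1. The share of all genes called by age, 44.1%, ran from 33.6% with no filter to 53.9% without 18-month replicates 4 and 5. With single tumours left out this share was 37.7% to 50.5%, and 38.1% without 18-month replicate 1. By genotype the count of synthetases stayed at 0 in both sets under every alternative run, where at most 1.04% of all genes were called. The mitochondrial count by age (1) was 0 with no filter and with median centring, 3 with array weights and 3 without 18-month replicates 4 and 5, and 0 to 2 with single tumours left out. Of all genes 42.5% were called by age with median centring and 51.2% with array weights. In the comparison of homozygous 9-month with heterozygous 18-month tumours, the cytosolic count (12) was 1 with only the compared groups and 6 to 15 with tumours left out. The share of all genes called there, 29.8%, was 6.23% with only the compared groups. It was 18.6% to 41.4% with single tumours left out and 47.4% without 18-month replicates 4 and 5. The mitochondrial count in this comparison (1) was 0 with no filter, with only the compared groups and with median centring, 3 with array weights and 3 without replicates 4 and 5, and 0 to 2 with tumours left out. Of all genes 21.5% were called in it with no filter, 28.5% with median centring and 44.7% with array weights. The causes were not tested. Of the 28 alternatives, Hars2 lost its call in 12, Eprs1 in 7, Aars1 and Nars1 in 4 each and Wars1 in 3, the last 4 among them without 18-month replicate 1. Farsb and Nars2 passed in 4, Aars2 in 3 and Rars2 in 2. With the replicate number as a block, 15 cytosolic and 1 mitochondrial genes were called by age, 11 and 1 in the third comparison and 0 by genotype. The shares of all genes called with this block were 42.8%, 30.2% and 0%. Same-numbered tumours had deviations that correlated between -0.288 and 0.353, so the numbers were not taken to pair tumours. Pars2 dropped out at the 50th percentile filter. Array signals show neither enzyme levels nor tRNA charging.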
